A study of Homo sapiens with 4 samples.

Results

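RNA of long noncoding genes that carry small nucleolar RNAs in their introns, together with a set of abundant or well-known long noncoding RNAs, was described in the ovarian cancer line Hey-A8. Members were chosen by gene symbol, with earlier results of these data known. They were every gene named SNHG (small nucleolar RNA host gene) followed by a number, and GAS5, ZFAS1, DANCR, MIR17HG, MIR22HG, MALAT1, NEAT1, NORAD, TUG1, OIP5-AS1, H19 and MEG3. The rule found 37 of the 58735 genes in the table under 36 symbols, because SNHG28 stands on 2 entries, and 30 of the 37 passed the filter on low counts and were tested. The shSPTLC2 group (2 libraries) carried a hairpin against SPTLC2, a subunit of the enzyme that starts sphingolipid synthesis, and the shCON group (2 libraries) carried a negative control hairpin. The labels disagree on the cells, since titles, genotypes and design give a stable SPTLC2 knockdown while the protocol text gives hairpin plasmids against ZDHHC15, transfected transiently and harvested at 36 h. The groups here follow the titles. All results come from 1 cell line, how many hairpins or clones were used is not given in the sources used here, and no label says that replicates are separate cultures, so each p-value measures only the spread between these libraries.

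SPTLC2 had 587 and 662 counts in the shSPTLC2 libraries, against 871 and 884 in the shCON libraries (log2 fold change -0.52 ± 0.12 SE, adjusted p = 0.0063 by edgeR quasi-likelihood, Benjamini-Hochberg), and ZDHHC15 had 0 counts in all 4. The adjusted p of SPTLC2 was 0.13 with shSPTLC2 replicate 1 left out and 0.052 with replicate 2 left out (edgeR). Total counts per library ran from 14464784 to 15084966, and the limit that a count of 0 allows (3 counts, counting error only) ran from 0.195 to 0.206 CPM (counts-per-million). The keratins KRT8, KRT18 and KRT7, the ovarian lineage factor PAX8 and the mesenchymal genes VIM and FN1 were abundant. Other markers were not: the epithelial cadherin CDH1 was at 0 in every library, EPCAM had 3 to 10 counts, the ovarian carcinoma antigen MUC16 had at most 1 count, KRT19 had 1.22 to 1.55 CPM, WT1 6.44 to 10.4 CPM and MSLN 9.93 to 16.2 CPM. The share of counts from mitochondrial genes was 10.1% and 8.56% in shSPTLC2, against 5.46% and 6.39% in shCON. In bulk RNA, fewer cells that express a gene and less RNA per cell cannot be told apart.

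Small nucleolar RNAs (snoRNAs) guide the chemical modification of ribosomal and other RNAs. Box C/D snoRNAs guide methylation of the ribose and box H/ACA snoRNAs guide pseudouridylation. Most are cut out of the introns of host genes that RNA polymerase II transcribes. In many of these hosts the spliced exons encode no protein, and in several of them, GAS5 among them, the spliced RNA is degraded by nonsense-mediated decay when it is translated. MIR17HG and MIR22HG play the same part for microRNAs. NEAT1 and MALAT1 act in the nucleus, NEAT1 as the scaffold of paraspeckles and MALAT1 in nuclear speckles, whereas NORAD acts in the cytoplasm, where it binds the Pumilio proteins that repress messenger RNAs.

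The snoRNAs below lie within the spans of SNHG18 and SNHG17, on the same strand, hosts whose RNA was higher in shSPTLC2. They are printed 5′ to 3′ as transcribed, from GENCODE 29 transcripts on hg38. Capitals mark box C (TGATGA) and box D (CTGA) in SNORD123 and the ACA box at the end of the H/ACA snoRNAs.
SNORD123 (SNHG18, chr5:9548836-9548905, + strand): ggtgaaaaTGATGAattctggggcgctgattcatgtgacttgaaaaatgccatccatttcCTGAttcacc
SNORA71A (SNHG17, chr20:38427309-38427442, - strand): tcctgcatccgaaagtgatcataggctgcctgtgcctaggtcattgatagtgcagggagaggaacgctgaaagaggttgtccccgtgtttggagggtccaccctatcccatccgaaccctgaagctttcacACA
SNORA71C (SNHG17, chr20:38429670-38429803, - strand): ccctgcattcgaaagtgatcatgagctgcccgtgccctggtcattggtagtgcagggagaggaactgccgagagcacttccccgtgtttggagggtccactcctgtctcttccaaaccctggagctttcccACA
SNORA71D (SNHG17, chr20:38433865-38433998, - strand): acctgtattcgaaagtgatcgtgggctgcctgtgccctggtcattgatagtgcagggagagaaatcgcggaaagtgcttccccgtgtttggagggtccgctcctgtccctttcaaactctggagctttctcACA
The 3 SNORA71 copies are all 134 bases long. Aligned without gaps, SNORA71C and SNORA71D shared 116 bases (86.6% identity), SNORA71A and SNORA71D shared 96 (71.6%), and SNORA71A and SNORA71C shared 95 (70.9%).

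MIR17HG is the primary transcript of the miR-17-92 cluster, a MYC-driven group of microRNAs known for promoting proliferation, and MIR22HG carries miR-22. The main mature arm of each is printed from RefSeq (GRCh38.p14), with the seed, bases 2 to 8, in capitals.
hsa-miR-17-5p: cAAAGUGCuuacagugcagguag
hsa-miR-20a-5p: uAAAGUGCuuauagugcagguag
hsa-miR-18a-5p: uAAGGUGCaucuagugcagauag
hsa-miR-19a-3p: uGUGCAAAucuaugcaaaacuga
hsa-miR-19b-3p: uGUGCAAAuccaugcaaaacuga
hsa-miR-92a-3p: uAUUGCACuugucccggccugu
hsa-miR-22-3p: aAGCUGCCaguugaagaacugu
By seed, miR-17-5p and miR-20a-5p form 1 group of 2, miR-19a-3p and miR-19b-3p form another, and miR-18a-5p, miR-92a-3p and miR-22-3p each stand alone.

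NORAD, the member that was lower in shSPTLC2, is known for its repeated Pumilio motifs. The motif TGTANATA was searched on both strands of each member's longest GENCODE 29 transcript. NORAD held 15 matches on its own strand (10 of TGTATATA, 4 of TGTAAATA and 1 of TGTACATA) and 1 on the other strand. Of 5 matches printed with 10 bases on either side, the motif is in capitals, on the - strand of hg38.
NORAD base 761 (chr20:36050183-36050210): ggaaggcctgTGTATATAatatgaaaaa
NORAD base 1140 (chr20:36049804-36049831): ctcactactgTGTATATAgttgacaatg
NORAD base 1241 (chr20:36049703-36049730): aatcacatttTGTAAATAcctttttgtt
NORAD base 1451 (chr20:36049493-36049520): gtgtatatagTGTACATAaaggacagac
NORAD base 2972 (chr20:36047972-36047999): aaccctactgTGTATATAgcggacaaac
Among members, NEAT1 had 6 matches on its own strand and 7 on the other, SNHG14 had 4 and 1, TUG1 had 2 and 1, and MIR17HG had 2 and 0. Of 1536 tested genes whose longest transcript was within 10% of the length of NORAD, 44.9% had at least 1 match on their own strand and 34.4% on the other. The median was 0 and the highest number apart from NORAD was 9. A match describes letters and is not evidence of binding.

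Per length and depth, NORAD, SNHG6 and GAS5 were the most abundant members. The gene length used was 3631 bases for GAS5, whose longest transcript has 1698, and 5339 for NORAD, whose transcript has 5339. The order between genes therefore depends on the annotated lengths. NORAD had 67.4 and 76.35 FPKM (fragments per kilobase of exon, scaled to library depth) in shSPTLC2, against 99.1 and 102.6 in shCON. SNHG6 had 65.0 and 63.1 FPKM in shSPTLC2, against 69.2 and 91.3 in shCON. GAS5, the growth-arrest-specific host of box C/D snoRNAs, had 72.4 and 63.6 FPKM in shSPTLC2, against 69.3 and 82.1 in shCON. These 3 levels overlapped between genes, and the step below them, to SNHG8 (mean of all libraries 41.97 FPKM, against 71.85 for GAS5), was 1 of 3 among 33 neighbours in the order whose library ranges did not overlap. NEAT1 (38.7), MALAT1 (34.2), SNHG19 (33.8) and SNHG1 (30.9) followed by mean FPKM, with no gap between neighbours. MIR17HG (2.67) and SNHG18 (2.26) stood low in the order. In counts not divided by length, NEAT1 led with 1008 and 1127 CPM in shSPTLC2, against 505 and 907 in shCON.

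**Figure D1:**
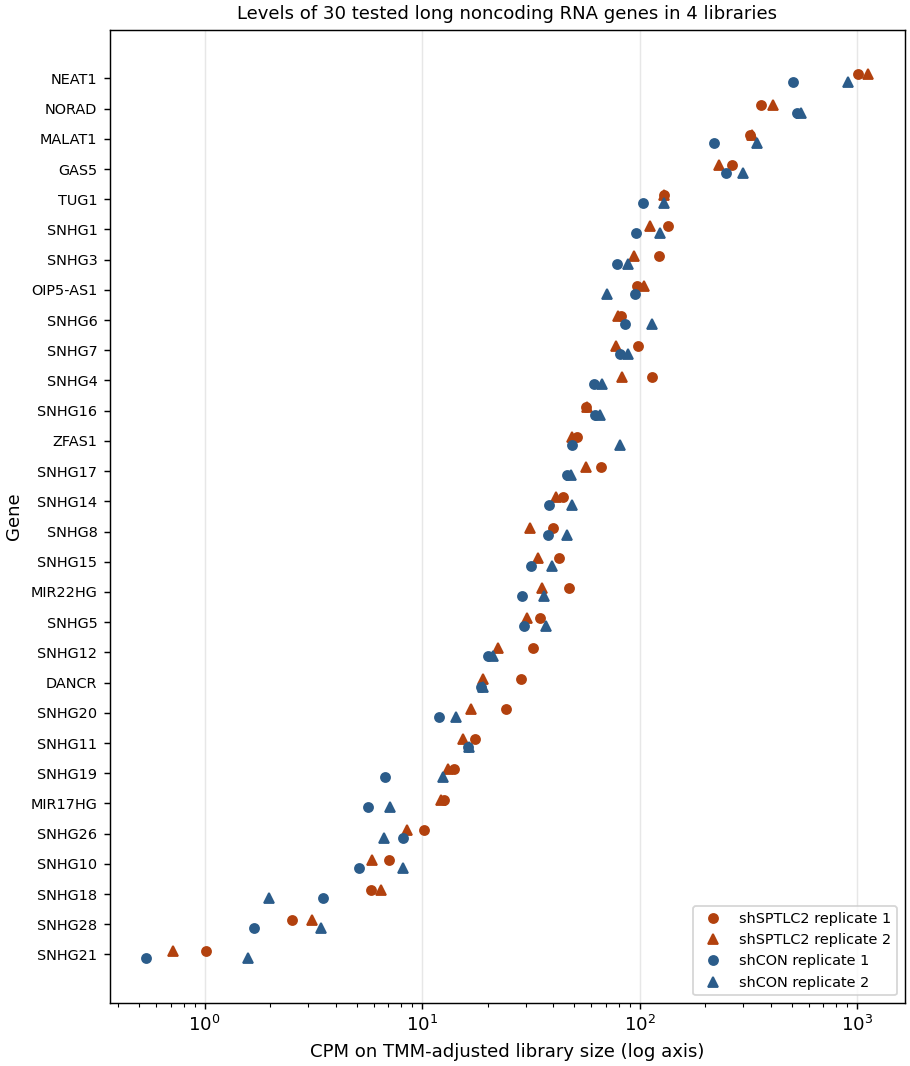
CPM on a log axis for the 30 tested genes, 1 point per library (red shSPTLC2, blue shCON; circle replicate 1, triangle replicate 2), ordered by mean level. NEAT1 is at the top, with its shCON replicate 1 point at 505 CPM to the left of the other libraries, and NORAD, with both shCON points to the right of both shSPTLC2 points, is next.

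Together the members took 0.334% (exact 95% binomial interval 0.331 to 0.337) and 0.330% (0.327 to 0.333) of all counts in shSPTLC2, against 0.250% (0.248 to 0.253) and 0.321% (0.318 to 0.324) in shCON. The intervals cover counting error only. Without NEAT1 the shares were 0.231% and 0.215% in shSPTLC2, against 0.200% and 0.233% in shCON, and the groups overlapped.

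Between the groups, 5 of the 30 tested members were higher in shSPTLC2 (16.7%), namely SNHG18, MIR17HG, SNHG20, SNHG4 and SNHG17, and 1 was lower (3.33%), NORAD. Each was called at an adjusted p under 0.05 by the edgeR quasi-likelihood test, with Benjamini-Hochberg adjustment over all genes. Over all 15313 tested genes 19.4% were called, 10.4% higher and 9.00% lower, and over the 1715 tested genes of a long noncoding biotype 11.1% were called, 7.41% higher and 3.73% lower. The members' share of calls, 20%, was therefore close to that of all genes. Their median log2 fold change was 0.16, against 0.00 for all genes and 0.13 for the tested long noncoding RNA genes, with 20 positive and 10 negative values, and 1 call, SNHG18, reached 2-fold. Without shSPTLC2 replicate 1, no member was called in either direction by edgeR (3 higher and 2 lower at an unadjusted p under 0.05), when 2.56% of all genes were still called higher and 1.41% lower. DESeq2 on all 4 libraries called 4 members higher and 1 lower, when it called 7.10% of all genes higher and 6.94% lower.

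**Figure D2:**
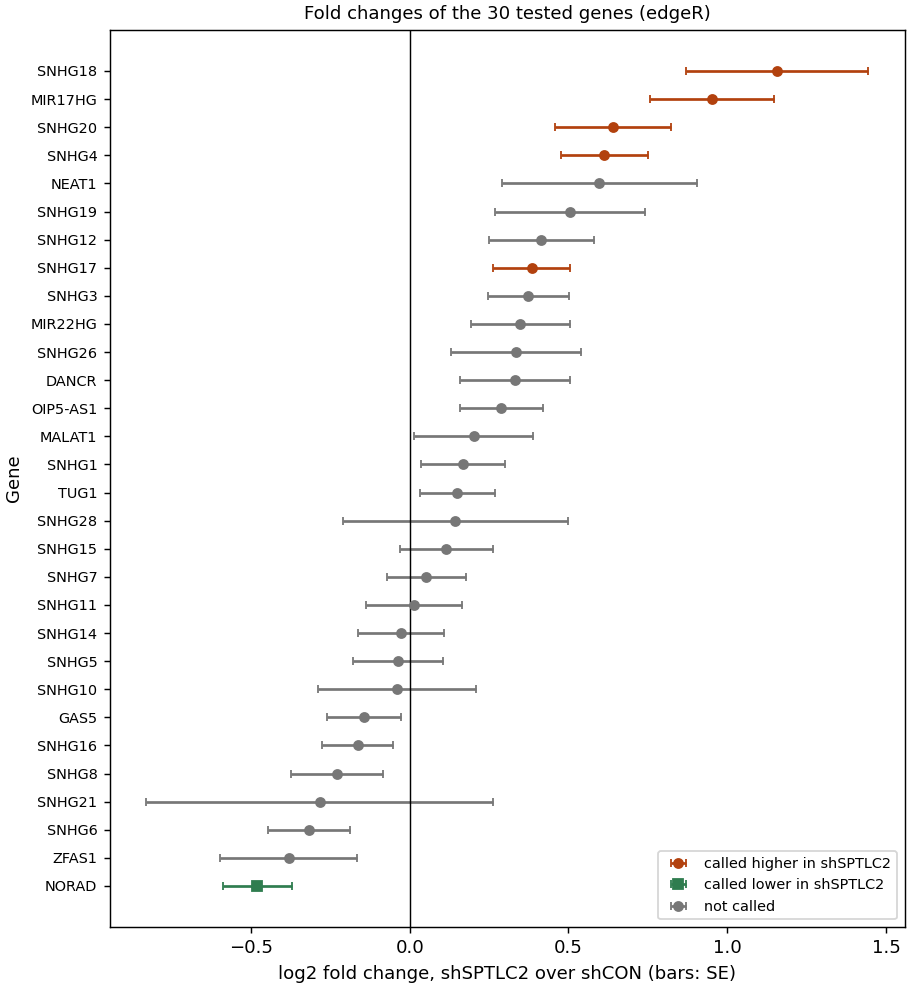
Log2 fold change of shSPTLC2 over shCON for the 30 tested genes, with SE bars, sorted by size (red called higher, green called lower, grey not called). SNHG18 at 1.16 and MIR17HG at 0.95 are at the top, NORAD at -0.48 is at the bottom, and NEAT1 lies among the largest values with a wide bar and no call.

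SNHG18 (ENSG00000250786, hg38 chr5:9546200-9550609, + strand), the host of SNORD123, had 5.84 and 6.44 CPM (86 and 99 counts) in shSPTLC2, against 3.50 and 1.99 CPM (52 and 29 counts) in shCON. Both shSPTLC2 libraries were above both shCON libraries. The log2 fold change, 1.16 ± 0.29 SE, was the largest among tested members (adjusted p = 0.011 by edgeR quasi-likelihood, Benjamini-Hochberg). The shCON libraries differed from each other by 0.82 on the log2 scale, and the call was lost without either shSPTLC2 library (adjusted p = 0.080 without replicate 1 and 0.095 without replicate 2, edgeR) and with limma on log2 FPKM (0.051). The SNORD123 entry itself held 1 and 3 counts in shSPTLC2 and 0 in both shCON libraries.

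MIR17HG (ENSG00000215417, hg38 chr13:91347820-91354579, + strand) had 12.6 and 12.2 CPM (185 and 187 counts) in shSPTLC2, against 5.65 and 7.12 CPM (84 and 104 counts) in shCON. The groups were well apart, and the shSPTLC2 libraries were nearly equal. Its mean was 12.4 ± 0.28 CPM in shSPTLC2 and 6.39 ± 1.04 CPM in shCON (SD, n = 2 each), a 1.93-fold difference (log2 fold change 0.95 ± 0.19 SE, adjusted p = 0.0036, edgeR quasi-likelihood). It was called in 15 of 16 alternative settings, the exception being the fit without shSPTLC2 replicate 1 (adjusted p = 0.063, edgeR). The 6 precursor entries inside it, for the microRNAs printed above, had 0 counts in every library, so the data hold the host RNA and say nothing of the mature microRNAs.

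SNHG4 (ENSG00000281398, hg38 chr5:139274102-139284899, + strand) had 113.5 and 83.3 CPM in shSPTLC2, against 61.8 and 66.9 CPM in shCON. The groups did not overlap, and shSPTLC2 replicate 1 was the highest library. The log2 fold change was 0.61 ± 0.14 (adjusted p = 0.0065, edgeR quasi-likelihood), and 0.37 without shSPTLC2 replicate 1 (adjusted p = 0.20). Limma on log2 FPKM did not call it either (adjusted p = 0.063). The gene lies wholly inside SIL1, which encodes a co-chaperone of the endoplasmic reticulum on the opposite strand. SIL1 was lower in shSPTLC2, with 364 and 411 counts, against 517 and 541 in shCON (log2 fold change -0.48 ± 0.13, adjusted p = 0.016, edgeR quasi-likelihood). The strand setting of the counting is not given in the sources used here. SNHG4 also lies wholly inside a MATR3 entry on the same strand, which had 1 and 2 counts in shSPTLC2, against 1 and 3 in shCON. Reads of that shared stretch could have been split between them under any strand setting.

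SNHG20 (ENSG00000234912, hg38 chr17:77086716-77099902, + strand) had 24.2 and 16.7 CPM in shSPTLC2, against 12.0 and 14.2 CPM in shCON. Again both shSPTLC2 libraries were the higher, replicate 1 by the wider margin. The log2 fold change was 0.64 ± 0.18 (adjusted p = 0.023, edgeR quasi-likelihood), and 0.35 without shSPTLC2 replicate 1 (adjusted p = 0.38). It was also not called by limma on log2 FPKM (adjusted p = 0.13). It shares 11154 bases of its span with SEC14L1 on the same strand, whose log2 fold change was 0.13 ± 0.11 (adjusted p = 0.42, edgeR quasi-likelihood), so reads of the shared stretch could have been split between them.

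SNHG17 (ENSG00000196756, hg38 chr20:38420588-38435353, - strand), the host of the SNORA71 copies, had 66.4 and 56.8 CPM in shSPTLC2, against 46.2 and 48.2 CPM in shCON. Its log2 fold change of 0.38 ± 0.12 (adjusted p = 0.037, edgeR quasi-likelihood) was the smallest of the 5 higher members. The call was lost in 4 of 16 alternative settings, which were DESeq2 (adjusted p = 0.068), limma on log2 FPKM (0.087) and the edgeR fits without shSPTLC2 replicate 1 (0.38) or replicate 2 (0.085).

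NORAD (ENSG00000260032, hg38 chr20:36045622-36050960, - strand) had 363 and 410 CPM (5352 and 6306 counts) in shSPTLC2, against 528 and 551 CPM (7837 and 8038 counts) in shCON. Both shSPTLC2 libraries were the lower, and no other gene of the table shares its span. The mean was 386.6 ± 33.1 CPM in shSPTLC2 and 539 ± 16.3 CPM in shCON (SD, n = 2 each), with a log2 fold change of -0.48 ± 0.11 SE and an adjusted p of 0.0070 by edgeR quasi-likelihood. It was called lower in 15 of 16 alternative settings, and without shSPTLC2 replicate 1 its log2 fold change was -0.39 (adjusted p = 0.19, edgeR). The motif-rich transcript printed above is thus the 1 abundant member with a difference in this direction that passed the test. Of the proteins known to bind NORAD or OIP5-AS1, none of 4 was called by edgeR or by DESeq2 (1 at an unadjusted p under 0.05 in either tool). ELAVL1, which encodes HuR, had 137 and 132 CPM in shSPTLC2, against 118 and 98.4 CPM in shCON (log2 fold change 0.31 ± 0.11, adjusted p = 0.065, edgeR quasi-likelihood).

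NEAT1 (ENSG00000245532, hg38 chr11:65422774-65445540, + strand) was not called with all libraries, although its groups did not overlap. Its mean was 1068 ± 84.1 CPM in shSPTLC2 and 706 ± 284 CPM in shCON (SD, n = 2 each), and its log2 fold change was 0.60 ± 0.31 (adjusted p = 0.27, edgeR quasi-likelihood). The shCON libraries differed from each other by 0.84 on the log2 scale. Of 2125 tested genes averaging 100 CPM or more, 15, NEAT1 included, differed as much or more between the shCON libraries, where the median difference was 0.13. Without shCON replicate 1 the log2 fold change was 0.23 (adjusted p = 0.10), and without shCON replicate 2 it was 1.07 (adjusted p = 1.2e-19, edgeR). It was called in 5 of the 16 alternatives, limma-voom (0.038) and no filter on low counts (0.014) among them, and its adjusted p ran from 1.2e-19 to 0.55. Gene counts do not separate the short from the long NEAT1 isoform, of which the long one builds paraspeckles.

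MALAT1 (ENSG00000251562, hg38 chr11:65497688-65506516, + strand) had 322 and 328 CPM in shSPTLC2, against 219.7 and 346 CPM in shCON. The shCON libraries lay on either side of the shSPTLC2 ones. Its log2 fold change was 0.20 ± 0.19 (adjusted p = 0.50, edgeR quasi-likelihood), -0.10 without shCON replicate 1 and 0.56 without shCON replicate 2 (adjusted p = 1.2e-05). TUG1, an RNA first described in the mouse retina, had 129 CPM in each shSPTLC2 library, against 103 and 129 CPM in shCON (0.15 ± 0.12, adjusted p = 0.41). OIP5-AS1, which binds HuR, had 97.2 and 105 CPM in shSPTLC2, against 94.8 and 70.6 CPM in shCON (0.29 ± 0.13, adjusted p = 0.14). For both genes 1 shCON library was close to the shSPTLC2 level and the other below it, but it was replicate 1 for TUG1 and replicate 2 for OIP5-AS1 that was low.

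Among snoRNA hosts, 4 of 23 tested were called higher and 0 lower by edgeR (6 higher and 1 lower at an unadjusted p under 0.05). The share called was 17.4%, against 19.4% of all tested genes, 10.4% higher and 9.00% lower. DESeq2 called 3 hosts higher and 0 lower, when it called 7.10% of all genes higher and 6.94% lower. The median log2 fold change of the hosts was 0.12. SNHG3, the host of the SNORA73 copies that take part in ribosomal RNA cleavage, had an adjusted p just above the threshold. It had 123 and 94.7 CPM in shSPTLC2, against 79.0 and 88.7 CPM in shCON (0.37 ± 0.13, adjusted p = 0.052, edgeR quasi-likelihood), and it was called in 8 of 16 alternatives, with adjusted p from 0.0019 to 0.56. It lies inside RCC1 on the same strand, and RCC1 had a log2 fold change of -0.17 ± 0.11 (adjusted p = 0.30). SNHG12 had 32.5 and 22.3 CPM in shSPTLC2, against 19.99 and 21.1 CPM in shCON (0.41 ± 0.17, adjusted p = 0.092). DANCR, known for holding back differentiation of progenitor cells, had 28.5 and 19.1 CPM in shSPTLC2, against 18.7 and 19.04 CPM in shCON (0.33 ± 0.17, adjusted p = 0.20). In SNHG12 and DANCR shSPTLC2 replicate 2 was close to shCON and replicate 1 stood above it. SNHG19 had 14.0 and 13.2 CPM in shSPTLC2, against 6.73 and 12.5 CPM in shCON (0.51 ± 0.24, adjusted p = 0.15), with shCON replicate 1 apart from the other libraries.

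The hosts with negative values were not called either. SNHG6 had 81.9 and 79.1 CPM in shSPTLC2, against 86.0 and 114.5 CPM in shCON (log2 fold change -0.32 ± 0.13, adjusted p = 0.099, edgeR quasi-likelihood). ZFAS1, the host of the SNORD12 copies, had 51.4 and 48.7 CPM in shSPTLC2, against 49.0 and 81.4 CPM in shCON (-0.38 ± 0.22, adjusted p = 0.27). GAS5 had 265 and 232 CPM in shSPTLC2, against 251 and 300 CPM in shCON (-0.15 ± 0.12, adjusted p = 0.41). In each of these 3, shCON replicate 2 was the highest library. SNHG8 had a log2 fold change of -0.23 ± 0.15 and SNHG16 of -0.16 ± 0.11, neither of them called. Among hosts with positive values, SNHG1, the host of SNORD22 and its neighbours, was not called (0.17 ± 0.13, adjusted p = 0.41, edgeR quasi-likelihood). It had 135 and 111.5 CPM in shSPTLC2, against 95.9 and 124 CPM in shCON, so its groups overlapped. The 8 other tested hosts, SNHG5, SNHG7, SNHG10, SNHG11, SNHG14, SNHG15, SNHG21 and SNHG28, had overlapping groups and log2 fold changes from -0.28 (SNHG21, 8 to 23 counts per library) to 0.14 (SNHG28). SNHG26 (0.34 ± 0.20) was the last tested host without a call. MIR22HG had 47.2 and 35.4 CPM in shSPTLC2, against 28.7 and 36.2 CPM in shCON (0.35 ± 0.16, adjusted p = 0.13).

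In all, the groups did not overlap for 15 of the 30 tested members (50%), 12 higher and 3 lower in shSPTLC2, against 61.5% of all tested genes. At an unadjusted p under 0.05 there were 9 members higher and 2 lower, 11 in all, when 33.2% of all genes passed that level. Members tended to move together between libraries of the same group. Of the 30, 22 were higher in shSPTLC2 replicate 1 than in replicate 2, against 50% of all tested genes. In shCON, 27 of 30 were higher in replicate 2 than in replicate 1, against 50.4% of all tested genes, the exceptions being SNHG18, SNHG26 and OIP5-AS1. Of the 23 tested snoRNA hosts, 12 were highest of all 4 libraries in shSPTLC2 replicate 1, against 24.9% of all genes.

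**Figure D3:**
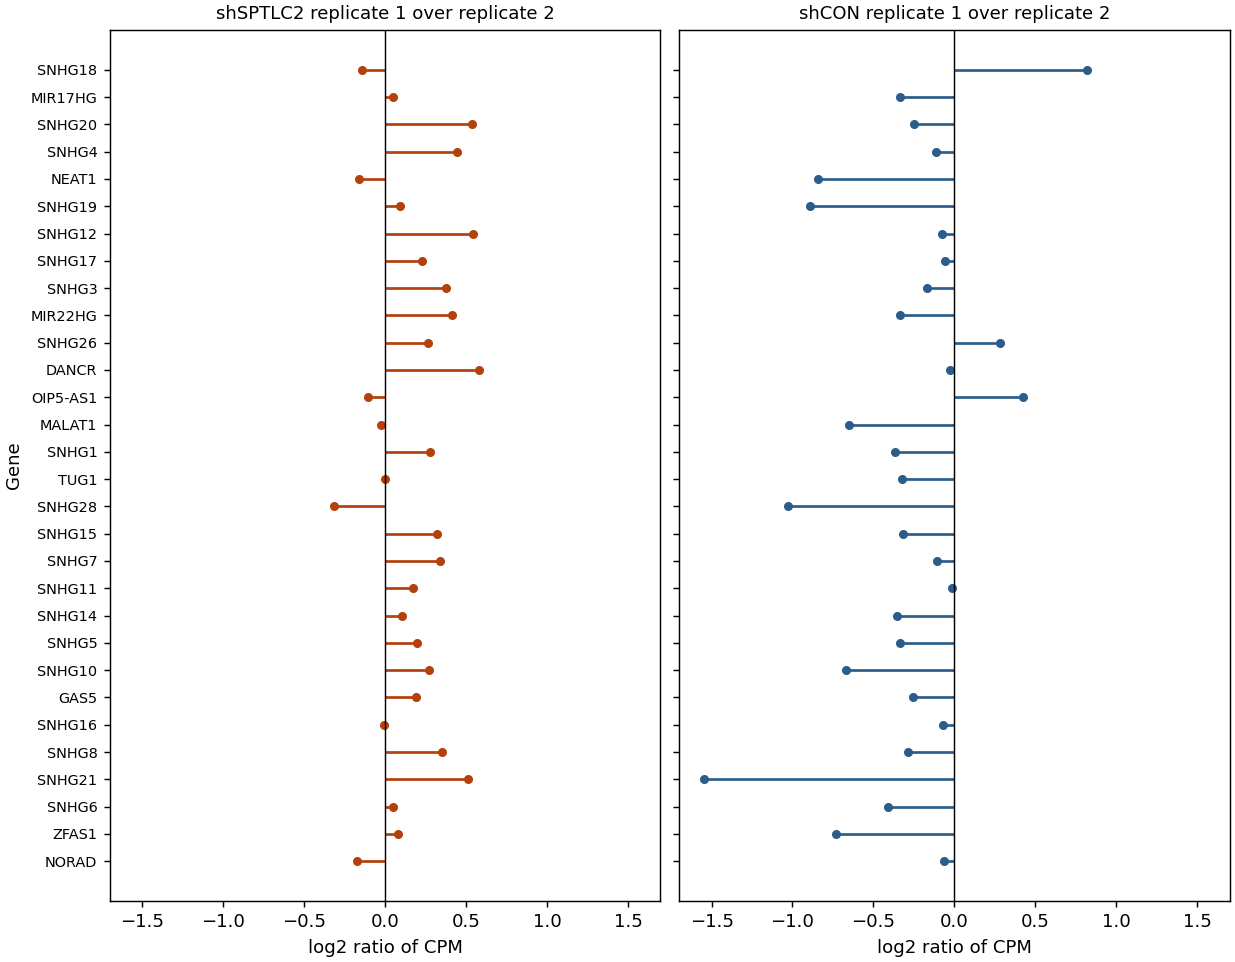
Log2 ratio of CPM of replicate 1 over replicate 2 for each tested gene, in shSPTLC2 on the left and in shCON on the right, in the order of the fold changes. Most points are right of 0 in shSPTLC2 (22 of 30) and left of 0 in shCON (27 of 30), with SNHG18, OIP5-AS1 and SNHG26 the 3 on the right in shCON.

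The number of calls followed which library was left out. Without shSPTLC2 replicate 2, edgeR called 5 members higher (SNHG3, SNHG4, SNHG12, SNHG20 and MIR17HG) and NORAD lower, when 3.68% of all genes were higher and 2.49% lower. Without shCON replicate 1 it called 6 higher (OIP5-AS1, SNHG4, SNHG17, SNHG20, MIR17HG and SNHG18) and 5 lower (NORAD, GAS5, SNHG6, ZFAS1 and SNHG8), when 12.2% of all genes were higher and 12.6% lower. Without shCON replicate 2 it called 13 higher, which added NEAT1, MALAT1, TUG1, SNHG1, SNHG3, MIR22HG, SNHG12 and SNHG19 to the 5 of the whole data, and NORAD lower, when 10.4% of all genes were higher and 9.69% lower. The median of the members was 0.07 without shSPTLC2 replicate 1, 0.23 without shSPTLC2 replicate 2, -0.01 without shCON replicate 1 and 0.33 without shCON replicate 2. NORAD kept a negative sign, and the 5 higher members a positive sign, in each of these 4 fits.

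**Figure D4:**
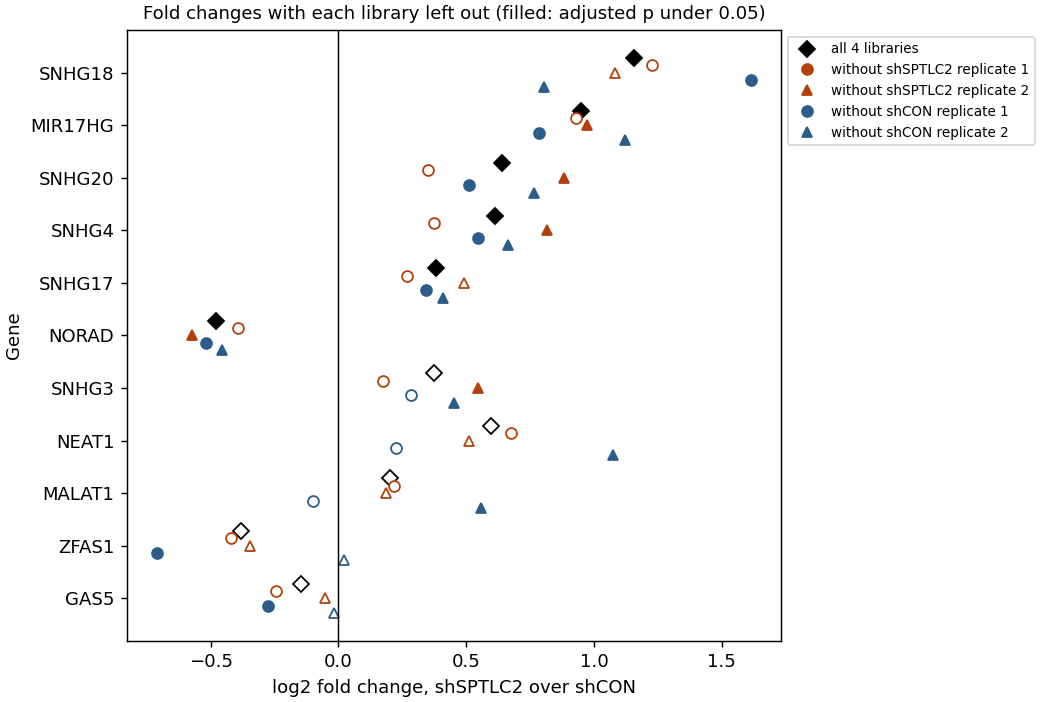
Log2 fold change for 11 members with all 4 libraries (black diamonds) and with each library left out (red without a shSPTLC2 library, blue without a shCON library). Filled symbols have an adjusted p under 0.05. The red circles, without shSPTLC2 replicate 1, are all open, and the blue symbols of NEAT1, SNHG18, ZFAS1 and MALAT1 lie farthest apart.

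Other members of the pathways were read from lists. Protein-coding genes also host snoRNAs, and 131 of the 144 such genes in the table were tested, of which edgeR called 8 higher and 30 lower, 29% in all against 19.4% of all tested genes, with a median log2 fold change of -0.19. The ribosomal protein genes among them, 28 of 29 tested, had 0 called higher (0 at an unadjusted p under 0.05, and 0 by DESeq2) and 3 called lower (RPS3A, RPL23 and RPL5), with a median of -0.31. Their share called, 10.7%, was near the 9.00% of all genes called lower. At an unadjusted p under 0.05 by edgeR, however, 15 of the 28 were lower, when 33.2% of all genes passed that level in either direction. DESeq2 called 6 of the 28 lower, when it called 6.94% of all genes lower. RPS3A had 466 and 488 CPM in shSPTLC2, against 594 and 759 CPM in shCON (-0.50 ± 0.12, adjusted p = 0.010, edgeR quasi-likelihood). None of the 3 kept its call when either shSPTLC2 library was left out. Without shCON replicate 1 the log2 fold changes were -0.68 (RPS3A), -0.86 (RPL23) and -0.42 (RPL5). Without shCON replicate 2 they were -0.32, -0.26 and -0.32. Of 103 other coding hosts, 8 were higher and 27 lower (34.0% called). The nucleolar gene NCL, which encodes nucleolin, had 739 and 795 CPM in shSPTLC2, against 1204 and 1514 CPM in shCON (-0.83 ± 0.13, adjusted p = 5.2e-04). The noncoding hosts had a median of 0.12, near the 0.13 of all tested long noncoding RNA genes, and the difference between coding and noncoding hosts was not tested. With either shSPTLC2 library left out, fewer of the other coding hosts were called, and fewer of all genes as well.

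Of 16 proteins that bind or assemble snoRNAs, all tested, edgeR called 0 higher (0 at an unadjusted p under 0.05, and 0 by DESeq2) and 4 lower, DKC1, NOP58, NHP2 and RUVBL1, with a median of -0.22, and 12 were not called. The share called was 25.0%, against 19.4% of all genes. At an unadjusted p under 0.05 by edgeR, 7 of the 16 were lower, when 33.2% of all genes passed that level in either direction. DKC1, the pseudouridine synthase of H/ACA snoRNAs and itself a snoRNA host, had 117 and 120 CPM in shSPTLC2, against 188 and 189 CPM in shCON (-0.67 ± 0.10, adjusted p = 5.0e-04, edgeR quasi-likelihood). The groups were well apart, and DKC1 was the 1 gene of the list still called lower without either shSPTLC2 library. NOP58, a core protein of C/D snoRNAs, had 110 and 111 CPM in shSPTLC2, against 149 and 151 CPM in shCON (-0.44 ± 0.10, adjusted p = 0.0079).

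Of 18 nonsense-mediated decay factors, 6 were called lower and DHX34 higher (0.56 ± 0.12, adjusted p = 0.0048, edgeR quasi-likelihood), with a median of -0.17. The share called was 38.9%, against 19.4% of all genes. The 6 were SMG6, SMG8, SMG9, EIF4A3, MAGOH and RBM8A, the last 3 of which belong to the exon junction complex. MAGOH had 32.8 and 31.8 CPM in shSPTLC2, against 44.97 and 56.7 CPM in shCON (-0.65 ± 0.13, adjusted p = 0.0037). Without shSPTLC2 replicate 1 only SMG9 of the 18 was called lower by edgeR, and DHX34 was not called (log2 fold change 0.46). Without replicate 2 only SMG8 was called lower, and DHX34 was still called higher (0.66). Of 11 paraspeckle proteins, the partners of NEAT1, 2 were called lower and 0 higher by edgeR (1 higher at an unadjusted p under 0.05, and 0 by DESeq2), with a median of -0.25. The share called, 18.2%, was near the 19.4% of all genes. At an unadjusted p under 0.05 by edgeR, 6 of the 11 were lower, when 33.2% of all genes passed that level in either direction. HNRNPK had 516 and 554 CPM in shSPTLC2, against 857 and 979 CPM in shCON (-0.78 ± 0.11, adjusted p = 3.6e-04). SFPQ, an essential paraspeckle protein, had 328 and 283 CPM in shSPTLC2, against 433 and 405 CPM in shCON (-0.46 ± 0.11, adjusted p = 0.010), and HNRNPK but not SFPQ was called without either shSPTLC2 library.

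Of 15 other named long noncoding RNAs that were tested, 2 were called higher and 1 lower, a share of 20% that was near the 19.4% of all genes. Their median was 0.10, against 0.13 for all tested long noncoding RNA genes. FTX, a regulator of the X inactivation centre, had 43.3 and 36.5 CPM in shSPTLC2, against 21.9 and 21.4 CPM in shCON (0.88 ± 0.13, adjusted p = 4.9e-04, edgeR quasi-likelihood). PVT1, the neighbour of MYC, had 97.7 and 88.2 CPM in shSPTLC2, against 68.6 and 76.0 CPM in shCON (0.36 ± 0.11, adjusted p = 0.035). EPB41L4A-AS1, a snoRNA host by another name, had 22.7 and 19.96 CPM in shSPTLC2, against 29.3 and 31.3 CPM in shCON (-0.51 ± 0.13, adjusted p = 0.016). Without shSPTLC2 replicate 1, FTX was still called (adjusted p = 0.033, edgeR), PVT1 and EPB41L4A-AS1 were not (0.33 and 0.086), and without replicate 2 those were not called either (0.12 and 0.19). PVT1 was also not called without shCON replicate 1 (0.075).

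**Figure D5:**
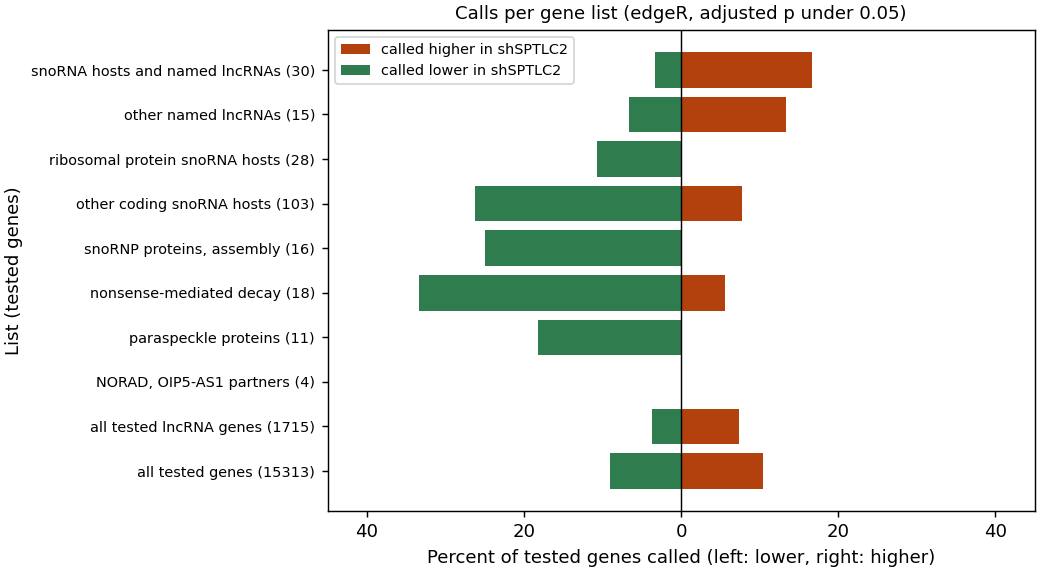
Percent of tested genes called lower (left, green) and higher (right, red) in shSPTLC2 for each list, with the number tested in brackets. The snoRNA hosts and named long noncoding RNAs have 16.7% to the right and 3.33% to the left, whereas the coding hosts, snoRNP, decay and paraspeckle lists lie mostly to the left.

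The extraction protocol in the labels discards small RNA, and its part in the counts of snoRNA entries was not tested. The 124 annotated SNORD or SNORA entries inside 20 members held 218 and 203 counts in shSPTLC2, against 138 and 188 in shCON, and 97 of them had 0 in every library. SNORA73B in SNHG3 had 60 and 50 counts in shSPTLC2, against 27 and 28 in shCON, and its sister copy SNORA73A had 0 in all. The 4 SNORA71 entries of SNHG17 had 79 and 81 counts in shSPTLC2, against 53 and 71 in shCON, most of them on SNORA71C (31 and 49 counts, against 28 and 30) and SNORA71B. SNHG14, the imprinted host antisense to UBE3A, holds 83 of the 124 entries and had 4 and 7 counts on them in shSPTLC2, against 5 and 17 in shCON. Counts on these entries can come from unspliced host RNA as well as from the snoRNA, and the sources used here do not separate them.

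The 7 members that were not tested were at or near 0. The imprinted tumour-suppressor RNA MEG3, SNHG27 and the second SNHG28 entry (ENSG00000188004) had 0 counts in every library, which allows up to 0.206 CPM per library. H19, the imprinted RNA of fetal tissue, had 2 and 0 counts in shSPTLC2 and 0 in both shCON libraries. SNHG22 had 1 and 1 counts in shSPTLC2, against 0 and 2 in shCON. SNHG25 had 3 and 4 counts in shSPTLC2, against 3 and 8 in shCON, and SNHG9 had 11 and 1, against 7 and 7. At this depth no difference in these 7 was detectable. SNORD104, a snoRNA inside SNHG25, held more counts than its host, 24 and 15 in shSPTLC2, against 13 and 18 in shCON. SNORA50C, also inside SNHG25, had 0 in every library. The tested SNHG28 entry (ENSG00000256029) is annotated as protein-coding and overlaps further genes on the same strand, so its 37 and 48 counts in shSPTLC2, against 25 and 50 in shCON, may include theirs.

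Properties that could move with the result were read beside it. The GC content of the tested members ran from 37.7% (MIR17HG) to 65.9% (SNHG7), with a median of 46.8%, against 48.0% for all tested genes. With a GC offset in the fit 6 members were higher and 1 lower, when 9.74% of all genes were called higher and 8.77% lower. With mitochondrial genes left out, an alternative chosen after seeing the data, the members had 5 higher and 1 lower, as with them. In that fit 10.3% of all genes were called higher and 9.11% lower. With library totals in place of TMM scaling, 12.6% of all genes were called higher and 6.74% lower, and 6 members higher and 1 lower.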

How the data were processed

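The deposited counts are raw reads per gene in 4 libraries, and the deposited FPKM table holds values that equal each count divided by gene length and a library factor. HISAT2, StringTie, SAMtools and build hg38 are named, with no versions, per the submitters' processing notes, while the sources used here do not give the counting program or its strand setting. All gene IDs matched GENCODE 29.

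Counts were tested in R 4.3.3 with edgeR 4.0.16: filterByExpr (minimum count 10, minimum total count 15), TMM scaling, a robust quasi-likelihood fit of shSPTLC2 against shCON without covariates, a two-sided F test, Benjamini-Hochberg adjustment over 15313 genes, and a call at an adjusted p under 0.05. Each SE was taken as the size of the log2 fold change divided by the root of its F statistic. The common biological coefficient of variation was 10.1%. CPM are on TMM-adjusted library sizes, and FPKM served to order levels between genes.

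Replicate libraries had r = 0.990 (shSPTLC2) and 0.987 (shCON) across genes, which are not independent replicates. A chi-square p under 0.05 was found for 28.4% and 36.7% of genes, so neither pair is 1 library deposited again. Alternatives, 16 in all, used DESeq2 1.42.0, limma 3.58.1 (voom, or log2 of FPKM plus 0.1), other scaling, other filters, GC or replicate terms, and each library left out, where a lone library is assumed to vary like the other group. The fitting script was tested on simulated data. Members and lists were chosen with earlier results of these data known. Every member is named, and in each list up to 3 genes with the smallest adjusted p and the most abundant gene could be named. Genes outside this rule, such as RUVBL1, DHX34 and the overlapping genes, were named after their values were seen. No set test was run. Some genes and sequences that the rule covers are not reported here.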

Additional observations from a re-analysis of the deposited data

How the results depend on the processing

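The 5 members called higher kept a positive sign and NORAD a negative sign under all 16 alternatives, with adjusted p from 1.2e-05 to 0.19 (NORAD), 3.9e-05 to 0.063 (MIR17HG), 5e-05 to 0.095 (SNHG18), 3.5e-06 to 0.20 (SNHG4), 0.00042 to 0.38 (SNHG20) and 0.013 to 0.38 (SNHG17). With 1 library left out, members called higher ran from 0 to 13 and lower from 0 to 5, all genes from 413 to 1977 higher and 227 to 2050 lower, tested long noncoding RNA genes from 20 to 156 higher and 16 to 91 lower, ribosomal protein hosts from 0 to 21 lower, other coding hosts from 1 to 10 higher and 7 to 34 lower, snoRNP genes from 1 to 8 lower, decay factors from 0 to 1 higher and 1 to 8 lower, paraspeckle genes from 0 to 1 higher and 1 to 5 lower, NORAD and OIP5-AS1 partners from 0 to 1 in either direction, other named long noncoding RNAs from 1 to 3 higher and 0 to 1 lower, and SPTLC2 from -0.58 to -0.47 (log2), its call lost without either shSPTLC2 library. Each of the lowest counts of members and of all genes came without shSPTLC2 replicate 1. Limma on log2 FPKM gave 1 member higher, all genes 738 higher and 659 lower, and lists of 0 ribosomal protein hosts lower, other coding hosts 1 higher and 15 lower, 2 snoRNP and 2 decay genes lower and 0 other named long noncoding RNAs higher. DESeq2 gave 62 long noncoding RNA genes higher and 28 lower, 6 ribosomal protein hosts lower and 1 other named long noncoding RNA higher. Ribosomal protein hosts lower numbered 5 without robust estimation and 12 with no filter on low counts, where 2 members were lower. Partners higher numbered 1 with a GC offset, library totals, and the replicate block with or without GC, and paraspeckle genes higher 1 with the GC offset. Deviations of equal replicate numbers had a correlation of -0.01 across genes. With 2 libraries a group this cannot show whether the libraries were prepared in pairs, and no label says so. The edgeR fit with a replicate block gave 8 members higher, NEAT1, SNHG3 and SNHG19 added, and 7 ribosomal protein hosts lower. NEAT1 had an adjusted p of 0.00060 in that fit and 0.0027 with GC (edgeR quasi-likelihood). Of 479 values of single members under alternatives, 409 kept sign and call, 27 gained a call, 13 lost one and 30 changed sign, none of the last called with all libraries. The changes of sign were SNHG7 with a GC offset (-0.22, also with the block), SNHG14 (0.062 and, with the block, 0.068, and 0.027 by library totals), SNHG5 (0.057, 0.059 and 0.019) and SNHG10 (0.047, 0.063 and 0.017). With 1 library left out the ranges were -0.10 to 0.56 for MALAT1, -0.013 to 0.31 for TUG1, -0.014 to 0.35 for SNHG1, -0.13 to 0.21 for SNHG7, -0.71 to 0.024 for ZFAS1, -0.20 to 0.15 for SNHG14, -0.050 to 0.28 for SNHG15, -0.21 to 0.14 for SNHG5, -0.073 to 0.096 for SNHG11, -0.35 to 0.33 for SNHG10, -0.29 to 0.74 for SNHG28 and -0.87 to 0.67 for SNHG21. The cause was not tested. With 2 libraries a group, a p that misses the threshold does not show that levels were equal.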
